A study of Mus musculus with 9 samples.

Results

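The costimulatory and checkpoint ligands are surface molecules through which an antigen-presenting cell tells a T cell to respond or to hold back. The set described here was chosen by gene name and not by a rule on measured values, although earlier results of these data were known. It holds 10 of the 52550 genes listed: *Cd40*, *Cd80*, *Cd86*, *Cd274*, *Pdcd1lg2*, *Icosl*, *Tnfsf4*, *Tnfsf9*, *Cd70* and *Cd83*. *Cd40* encodes a receptor of the same contact zone and *Cd83* a maturation protein of the dendritic cell surface, and both were kept with the ligands.

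The study asked how the *Ncf1* p.R90H variant alters plasmacytoid DCs (pDCs). Its mouse RNA-Seq had 9 samples of spleen pDCs on the C57BL/6 strain, 3 each from WT (GG), heterozygous (AG) and homozygous (AA) KI mice, and every sample was cultured with the TLR7 agonist R848 for 12 hours. All KI alleles were germline, made by CRISPR/Cas9, and per the methods adult female mice were used, with no statement on whether animals were pooled. Below, all values come from A/A replicate 1. The remaining 8 samples were not analysed here, which leaves no unstimulated or WT sample to compare with, no replicate error and no test between genotypes.

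The values of A/A replicate 1 corresponded to 31408298 reads on 17664 genes. Levels are given as CPM (reads per 1000000 reads of the library) and, for comparisons between genes, as RPKM (CPM per kilobase of annotated exon). The 95% CIs cover counting error only and treat reads as independent. Reads that went through PCR with no molecular identifiers do not stand for independent molecules, so the CIs can be too narrow. All 11 pDC markers were above the floor of 3 reads, with a median of 374 CPM. Of the 12201 protein-coding genes with reads, 12062 were also above this floor, so passing it does not set a list apart. *Ncf1* had 33881 reads, although its alleles cannot be told apart in these values. The library went against the stated sex of the mice: the Y-linked gene *Ddx3y* had 102 CPM and *Xist* was listed at 0. No other library was analysed here that could be used in its place.

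T cells need a signal beside antigen recognition to become activated, and dendritic cells supply it through 2 protein families. The B7 family of immunoglobulin-like proteins includes CD80 and CD86, which bind the activating receptor CD28 and the inhibitory receptor CTLA4, ICOSL, which binds ICOS, and the PD-1 ligands PD-L1 (*Cd274*) and PD-L2 (*Pdcd1lg2*), which restrain T cells. The TNF family includes OX40L (*Tnfsf4*), 4-1BBL (*Tnfsf9*) and CD70, which bind OX40, 4-1BB and CD27 on lymphocytes. CD40 works in the opposite direction, since it receives CD40L from T cells and signals through TRAF adaptors and the noncanonical NF-κB pathway. Dendritic cells that sense microbial nucleic acids through TLRs are known to raise many of these molecules as they mature.

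Promoter sequences were at hand in the RefSeq table (GRCm38.p6) for 4 of the 10 members, all of the B7 family, and are shown because they include both PD-1 ligands, whose levels lay far apart. Each is the part of the 250 bases before the RefSeq start that lies outside exons of coding transcripts, written 5′ to 3′ on the strand of the gene. Capitals mark motif matches. The stretches are chr16:38458683-38458932 for *Cd80*, chr19:29367309-29367437 for *Cd274*, chr19:29410669-29410918 for *Pdcd1lg2* and chr10:78069118-78069301 for *Icosl*, all on the plus strand.
Cd80: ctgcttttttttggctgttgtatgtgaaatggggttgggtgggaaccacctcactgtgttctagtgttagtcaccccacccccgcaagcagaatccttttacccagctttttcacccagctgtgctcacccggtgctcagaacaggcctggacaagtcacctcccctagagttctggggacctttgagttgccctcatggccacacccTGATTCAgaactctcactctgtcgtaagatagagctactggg
Cd274: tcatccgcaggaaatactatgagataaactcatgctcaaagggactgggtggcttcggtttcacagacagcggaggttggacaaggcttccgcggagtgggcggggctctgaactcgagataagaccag
Pdcd1lg2: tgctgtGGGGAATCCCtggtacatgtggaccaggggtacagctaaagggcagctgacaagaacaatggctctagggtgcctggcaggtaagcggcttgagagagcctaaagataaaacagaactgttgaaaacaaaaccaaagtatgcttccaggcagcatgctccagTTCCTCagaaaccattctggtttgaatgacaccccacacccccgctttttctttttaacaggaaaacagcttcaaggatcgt
Icosl: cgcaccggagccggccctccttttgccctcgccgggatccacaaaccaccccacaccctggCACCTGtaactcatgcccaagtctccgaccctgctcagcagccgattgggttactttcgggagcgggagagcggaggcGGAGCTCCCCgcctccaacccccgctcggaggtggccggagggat

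The motifs searched, on both strands of the 250 bases before and 50 bases after each RefSeq start, were the κB motif of NF-κB, ISRE (GAAANNGAAA), GAS (TTCNNNGAA), AP-1 (TGANTCA), PU.1 (GAGGAA) and the E-box CAGGTG that E proteins such as TCF4 can bind. The *Pdcd1lg2* promoter held a κB match, GGGGAATCCC, at −244 to −235 from the start, and a PU.1 match on the minus strand at −82 to −77. The *Icosl* promoter held a κB match on the minus strand, GGAGCTCCCC, at −111 to −102, and an E-box at −189 to −184. The *Cd80* promoter held an AP-1 match, TGATTCA, at −42 to −36. The *Cd274* stretch shown held none, and its E-box match at −235 to −230 lay upstream of the stretch. No match overlapped another motif. Of all 32851 promoters of this length, 8.46% held a κB motif, 3.44% an ISRE, 8.30% a GAS, 7.81% an AP-1, 28.3% a PU.1 and 20.2% an E-box. With 4 promoters these shares give no comparison, and a match describes letters and not a bound site.

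All 10 members had reads above the floor in A/A replicate 1, as did 12062 of the 12201 protein-coding genes with reads. Together they took 112011 reads, 0.357% of the library, and *Cd83* alone took 52.4% of them. The median member had 162.8 CPM, beside 6.34 CPM for all genes with reads and 17.8 CPM for protein-coding genes with reads. Counted by CPM, 6 of the 10 stood at percentile 92.4 or higher among genes with reads and *Pdcd1lg2*, at 45.2, stood below the middle. Among protein-coding genes with reads, 3 members stood below the middle, *Cd80* at percentile 49.3, *Cd70* at 31.5 and *Pdcd1lg2* at 25.7. The median percentile of the 10 members was 93.6 among genes with reads and 91.0 among protein-coding genes with reads. By RPKM, the highest member was 341-fold above the lowest, so the set did not share a level.

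**Figure D1:**
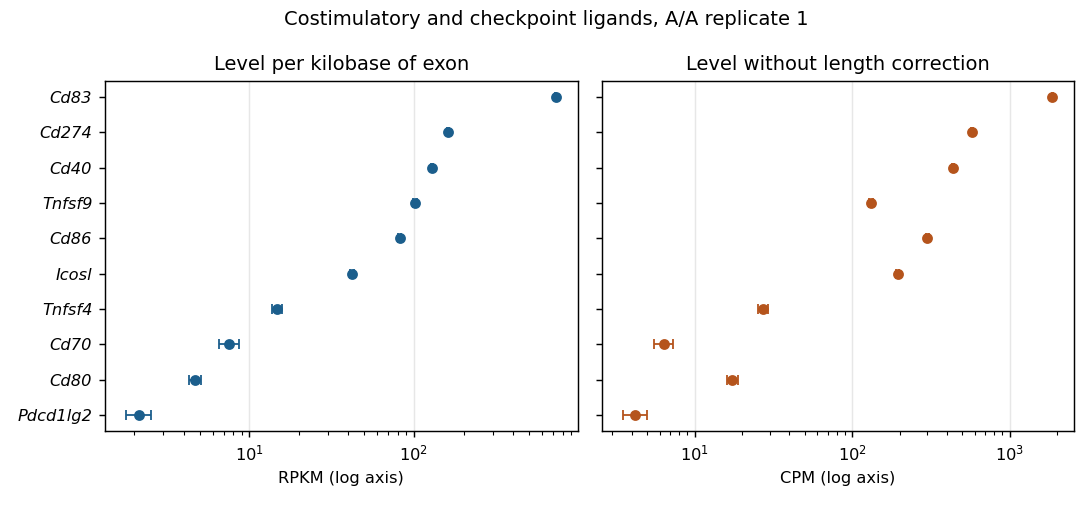
Level of each member in A/A replicate 1, as RPKM (left, log axis) and CPM (right, log axis), ordered by RPKM. Points are the single library and bars are 95% CIs for counting error; *Cd83* sits highest at 726 RPKM and *Pdcd1lg2* lowest at 2.13, and *Tnfsf9* drops below *Cd86* and *Icosl* when length is not taken into account.

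CD80 and CD86 share their receptors, and in this library their transcript levels were unequal. *Cd86* (ENSMUSG00000022901.13, GRCm38 chr16:36603869-36666081, minus strand) had 9409 reads, 299.6 CPM (95% CI, 294 to 306) and 81.8 RPKM (95% CI, 80.2 to 83.5). *Cd80* (ENSMUSG00000075122.4, chr16:38458933-38486933, plus strand) had 545 reads, 17.4 CPM (95% CI, 16.0 to 18.9) and 4.69 RPKM (95% CI, 4.31 to 5.10). The ratio of *Cd86* to *Cd80* was 17.5 per kilobase of exon (95% CI, 16.0 to 19.1), so *Cd86* was the more abundant of the pair at this depth. The annotated *Cd80* exons span 3703 bases, of which only 1701 lie within the gene bounds of the deposited table. With the shorter length, *Cd80* had 10.2 RPKM and the ratio was 8.02. The genes lie on the same chromosome 1793 kb apart.

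The PD-1 ligands differed more. *Cd274*, which encodes PD-L1 (ENSMUSG00000016496.7, chr19:29367455-29388095, plus strand), had 18219 reads, 580 CPM (95% CI, 572 to 589) and 160 RPKM (95% CI, 158 to 162). *Pdcd1lg2*, which encodes PD-L2 (ENSMUSG00000016498.9, chr19:29410919-29471157, plus strand), had 131 reads, 4.17 CPM (95% CI, 3.52 to 4.95) and 2.13 RPKM (95% CI, 1.79 to 2.52). These genes lie 22.8 kb apart on the same strand. The *Cd274* level was 75.3 times that of *Pdcd1lg2* per kilobase of exon (95% CI, 63.4 to 90.1), and the ratio was 139 in CPM. Exons on the opposite strand overlapped 14.1% of the *Cd274* exon bases, and the use of strand in counting was not given in the sources used here. Without strand, reads of *Cd274* and of an antisense transcript cannot be told apart over that share.

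*Icosl*, the ligand through which dendritic cells and B cells sustain ICOS-expressing T cells, lay between the PD-1 ligands in level. It (ENSMUSG00000000732.9, chr10:78069302-78083913, plus strand) had 6113 reads, 195 CPM (95% CI, 189.8 to 199.6) and 42.1 RPKM (95% CI, 41.1 to 43.2). Its level per kilobase was below that of *Cd86*, with a ratio of *Cd86* to *Icosl* of 1.94 (95% CI, 1.88 to 2.01). Its 4 annotated transcripts cover 4620 exon bases, the longest exon length among the members.

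The 3 TNF family ligands ranged from 101 down to 7.56 RPKM. *Tnfsf9*, which encodes 4-1BBL (ENSMUSG00000035678.7, chr17:57105385-57107757, plus strand), had 4112 reads, 131 CPM (95% CI, 127 to 135) and 101 RPKM (95% CI, 98.4 to 105). *Tnfsf4*, which encodes OX40L (ENSMUSG00000026700.4, chr1:161395409-161418410, plus strand), had 852 reads, 27.1 CPM (95% CI, 25.4 to 29.0) and 14.7 RPKM (95% CI, 13.8 to 15.7). *Cd70* (ENSMUSG00000019489.7, chr17:57145997-57149777, minus strand) had 200 reads, 6.37 CPM (95% CI, 5.54 to 7.31) and 7.56 RPKM (95% CI, 6.58 to 8.69). *Tnfsf9* and *Cd70* lie 38.2 kb apart, on opposite strands, and *Tnfsf9* was 13.4 times higher per kilobase (95% CI, 11.6 to 15.5). The exons of *Tnfsf9* sum to 1290 bases, and 14.9% of them overlap exons of opposite-strand genes, among them the lincRNA *Gm11110*, which had 80 reads.

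*Cd40*, the receptor for CD40L, was the third member in the order of levels. It (ENSMUSG00000017652.16, chr2:165055627-165072948, plus strand) had 13781 reads, 439 CPM (95% CI, 432 to 446) and 129 RPKM (95% CI, 127 to 131). Of its 7 annotated transcripts, 4 are coding, and the values do not separate them. *Cd83*, a marker of mature dendritic cells that limits the removal of CD86 and MHC class II from the surface, was the highest member. It (ENSMUSG00000015396.4, chr13:43784775-43803132, plus strand) had 58649 reads, 1867 CPM (95% CI, 1852 to 1882) and 726 RPKM (95% CI, 720 to 732). Only 51 protein-coding genes had a higher RPKM, and *Cd83* was 4.53 times *Cd274*, the next member (95% CI, 4.46 to 4.61).

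By RPKM the order ran *Cd83*, *Cd274*, *Cd40*, *Tnfsf9*, *Cd86*, *Icosl*, *Tnfsf4*, *Cd70*, *Cd80* and *Pdcd1lg2*. The neighbours *Cd274* and *Cd40* differed by a ratio of 1.24 (95% CI, 1.22 to 1.27), *Cd40* and *Tnfsf9* by 1.27 (95% CI, 1.23 to 1.31), and *Tnfsf9* and *Cd86* by 1.24 (95% CI, 1.20 to 1.29). Lower in the order, *Cd70* and *Cd80* differed by 1.61 (95% CI, 1.37 to 1.90). For none of the 9 pairs of neighbours did the interval include 1. The length chosen moved some of these steps, however. *Cd86* stood above *Tnfsf9* with the longest transcript, the coding sequence or CPM, and *Cd80* stood above *Cd70* with CPM, the coding sequence or the exon length within the deposited bounds. The places of *Cd83*, *Cd274* and *Cd40* at the top, of *Tnfsf4* in the seventh place and of *Pdcd1lg2* at the bottom were the same under these 4 other scales.

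**Figure D2:**
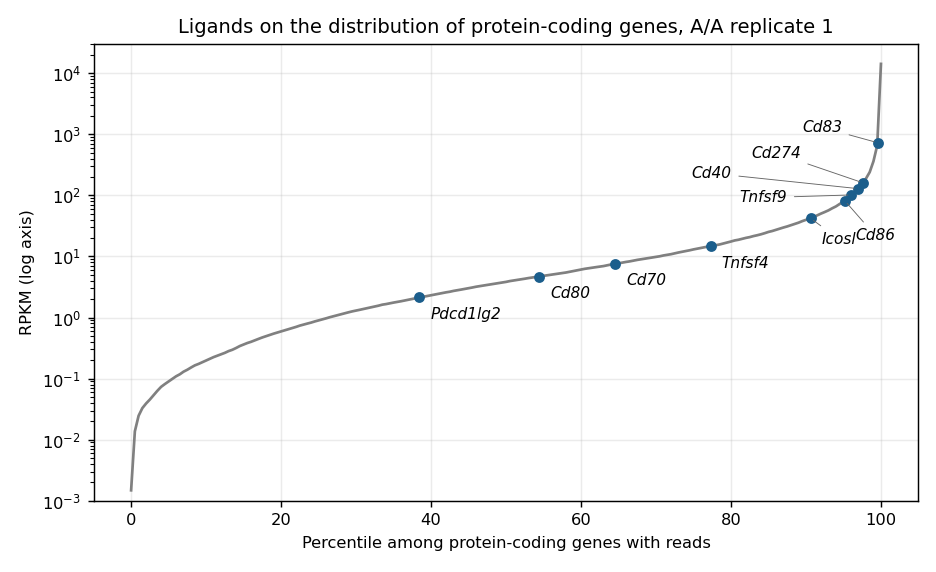
RPKM (log axis) against percentile for protein-coding genes with reads in A/A replicate 1 (grey line), with the 10 members as points. *Cd83*, *Cd274*, *Cd40*, *Tnfsf9*, *Cd86* and *Icosl* lie on the steep upper end, *Tnfsf4*, *Cd70* and *Cd80* above the middle, and *Pdcd1lg2* below it.

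No binding partner was listed for *Cd83*. Those of the other members are mostly proteins of T cells, and 6 of these 8 genes had reads above the floor. *Tnfrsf4* (OX40) had 1321 reads and 30.8 RPKM, *Tnfrsf9* (4-1BB) had 887 reads and 10.4 RPKM, and *Cd28* had 1089 reads and 5.66 RPKM. *Pdcd1* (PD-1) had 284 reads, *Icos* had 376 and *Cd27* had 140. *Ctla4* and *Cd40lg* were listed at 0, which allows up to 3 reads, or 0.0955 CPM. All 4 T cell markers, the CD3 chain genes *Cd3e*, *Cd3d* and *Cd3g* and the T-lineage transcription factor gene *Bcl11b*, were also listed at 0 in this library.

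Set against their partners, some ligands were the higher gene of the pair and others the lower. *Cd274* was 34.2 times *Pdcd1* per kilobase of exon (95% CI, 30.4 to 38.6), *Cd86* 14.4 times *Cd28* (95% CI, 13.6 to 15.4) and *Icosl* 12.1 times *Icos* (95% CI, 10.9 to 13.4). *Tnfsf9* was 9.78 times *Tnfrsf9* (95% CI, 9.10 to 10.5) and *Cd70* 3.95 times *Cd27* (95% CI, 3.17 to 4.94). The order was the opposite for *Tnfsf4*, at 0.478 times *Tnfrsf4* (95% CI, 0.438 to 0.521) and for *Pdcd1lg2*, at 0.454 times *Pdcd1* (95% CI, 0.366 to 0.560). *Cd80* could not be placed above or below *Cd28*. Its ratio was 0.827 with all annotated exons (95% CI, 0.745 to 0.918) and 1.80 with the exon length within the deposited bounds (95% CI, 1.62 to 1.998). These are transcripts of the same bulk library of sorted cells. They do not show that ligand and partner come from the same cell, and say nothing of contact between cells.

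**Figure D3:**
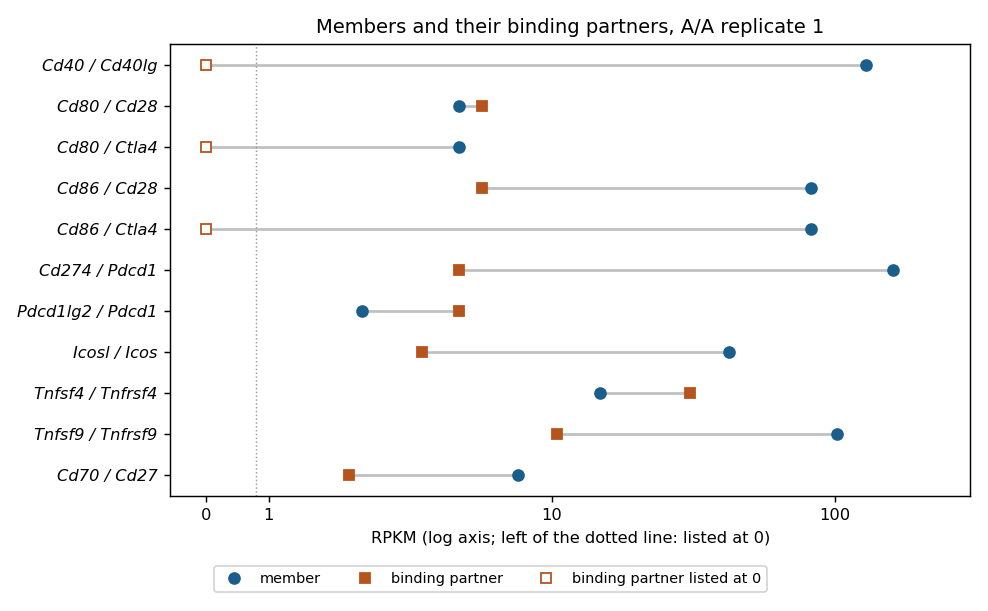
The 9 members with a listed binding partner (blue circles) and these partners (orange squares) in A/A replicate 1, in RPKM on a log axis, with open squares left of the dotted line for partners listed at 0. *Tnfsf4* and *Pdcd1lg2* lie to the left of *Tnfrsf4* and *Pdcd1*, *Cd80* lies close to *Cd28* and would lie to its right, at 10.2 RPKM, with the exon length within the deposited bounds, and the other members plotted lie to the right of their partners.

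The 8 relatives of the members listed here had at most 7.63 RPKM, and other genes of these families were not read. Of 4 other B7 family genes, 2 were above the floor. *Vsir*, which encodes the inhibitory protein VISTA, had 811 reads and 5.15 RPKM, *Cd276* had 40 reads, *Btnl2* had 1 read and *Vtcn1* was listed at 0. Of 4 other costimulatory ligands of the TNF family, 3 were above the floor. *Tnfsf8* (CD30L) had 912 reads and 7.63 RPKM, *Tnfsf15* (TL1A) had 618 reads and 5.88 RPKM, *Tnfsf14* (LIGHT) had 16 reads and *Tnfsf18* (GITRL) was listed at 0. The highest of these 8 genes, *Tnfsf8*, was below 7 of the 10 members in RPKM.

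Genes that act downstream of CD40 were detected throughout. All 10 listed genes were above the floor, as were 12062 of the 12201 protein-coding genes with reads. The 10 genes had a median of 51.3 RPKM, beside 3.83 RPKM for protein-coding genes with reads. The noncanonical NF-κB subunit genes *Relb* and *Nfkb2* had 171 and 102 RPKM, and the adaptor genes *Traf1* and *Traf2* had 82.2 and 39.8. The ubiquitin ligase genes *Birc3* and *Birc2* had 72.5 and 62.7 RPKM. *Traf5* and *Traf6* followed at 14.4 and 11.6 RPKM, and the lowest were *Map3k14*, which encodes the kinase NIK, at 4.44 and *Traf3*, whose protein holds NIK in check, at 3.47.

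Genes for surface turnover of the ligands were above the floor in 4 of 4 cases and spread widely. *Cmtm6*, whose protein keeps PD-L1 at the surface, had 129 RPKM, and its relative *Cmtm4* had 0.156. *March1*, which encodes the ubiquitin ligase that removes CD86 and MHC class II, had 1201 reads and 5.35 RPKM, and *March8* had 296 reads and 0.978 RPKM. The symbols of both March genes are date numbers in the deposited table, as are those of 11 genes in all, and they were matched by gene identifier.

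**Figure D4:**
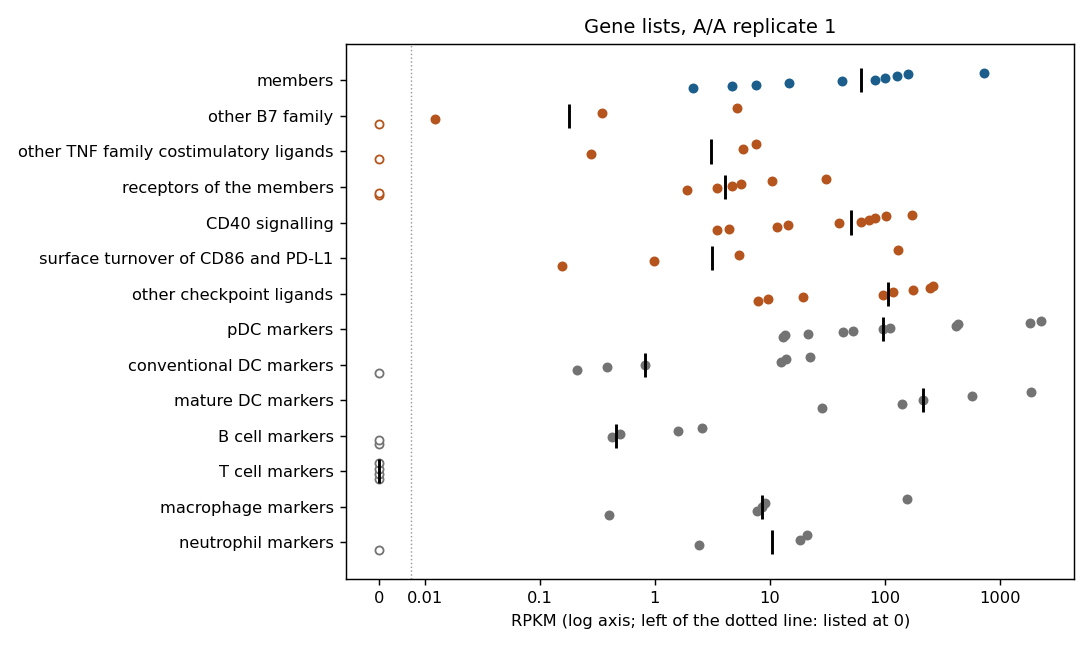
RPKM (log axis) of each gene of the members (blue), of the 6 other ligand and pathway lists (orange) and of the 7 marker lists (grey) in A/A replicate 1. Black bars are list medians and open circles left of the dotted line are genes listed at 0; the median is 62.0 RPKM for the members and 51.3 for CD40 signalling, and all 4 T cell markers lie at 0.

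Several members are also expressed by other cells of the spleen, and the marker lists bear on that. All 5 markers of mature DCs were above the floor, with a median of 858 CPM, led by *Ccr7* at 3689 CPM and *Ccl22* at 1347. Of 7 conventional DC markers, 6 were above the floor, with a median of 2.36 CPM and a highest value of 106 for *Zbtb46*, which encodes a transcription factor of conventional DCs. *Clec9a* had 73.9 CPM and *Sirpa* had 67.5, whereas *Xcr1* had 1.72 and *Cd209a* was listed at 0. Of 6 B cell markers, 4 were above the floor, with a median of 1.81 CPM, and *Pax5* and *Cr2* were listed at 0. The 5 macrophage markers had a median of 25.1 CPM and the 4 neutrophil markers of 5.73 CPM, with *Lyz2* at 207 CPM and *Ly6g* listed at 0. In bulk RNA, cells of another type and expression by the pDCs themselves cannot be told apart, and the part that conventional DCs or macrophages had in the members' levels was not tested. Per kilobase of exon, *Clec9a* had 22.5 RPKM, *Sirpa* 13.8 and *Zbtb46* 12.4, above *Cd70* at 7.56, *Cd80* at 4.69 and *Pdcd1lg2* at 2.13. The other conventional DC markers, *Clec10a* at 0.813, *Xcr1* at 0.386, *Itgam* at 0.209 and *Cd209a* at 0, lay below these members. Of the macrophage markers, only *Mertk* at 0.397 lay below them, and *Lyz2* was highest at 158. The neutrophil markers *S100a8* at 21.1 and *S100a9* at 18.4 lay above them, *Camp* at 2.44 above *Pdcd1lg2* alone, and *Ly6g* at 0 below. The highest B cell marker, *Cd79b* at 2.58, also lay above *Pdcd1lg2* alone. The summed level was 252 CPM for the conventional DC markers, 293 CPM for the macrophage markers and 6592 CPM for the mature DC markers. It was 9195 CPM for the pDC markers and 3566 CPM for the members. The lists hold unequal numbers of genes, so these sums do not measure shares of cells.

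Members that sit side by side in the genome did not have like levels. By the deposited gene bounds, the nearest gene to *Cd274* was *Plgrkt*, on the opposite strand with its start 64 bases away. *Plgrkt* had 75.2 CPM and 19.8 RPKM. The 14.1% overlap of *Cd274* exon bases was taken from annotated exons, not from these bounds, and the genes behind it were not listed. Upstream, *Jak2*, which encodes a kinase of cytokine receptors, had 98.3 RPKM. Downstream, *Pdcd1lg2* was the lowest of the protein-coding genes with reads in the plotted stretch, and *Ric1* beyond it had 5.30 RPKM. The TNF family ligands formed a second cluster, in which *Tnfsf9*, *Cd70* and *Tnfsf14* stepped down from 101 to 7.56 and 0.276 RPKM. *Cd70* and *Tnfsf14* are 39.7 kb apart. On chromosome 1, *Tnfsf18* lies 76.2 kb from *Tnfsf4* and was listed at 0.

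**Figure D5:**
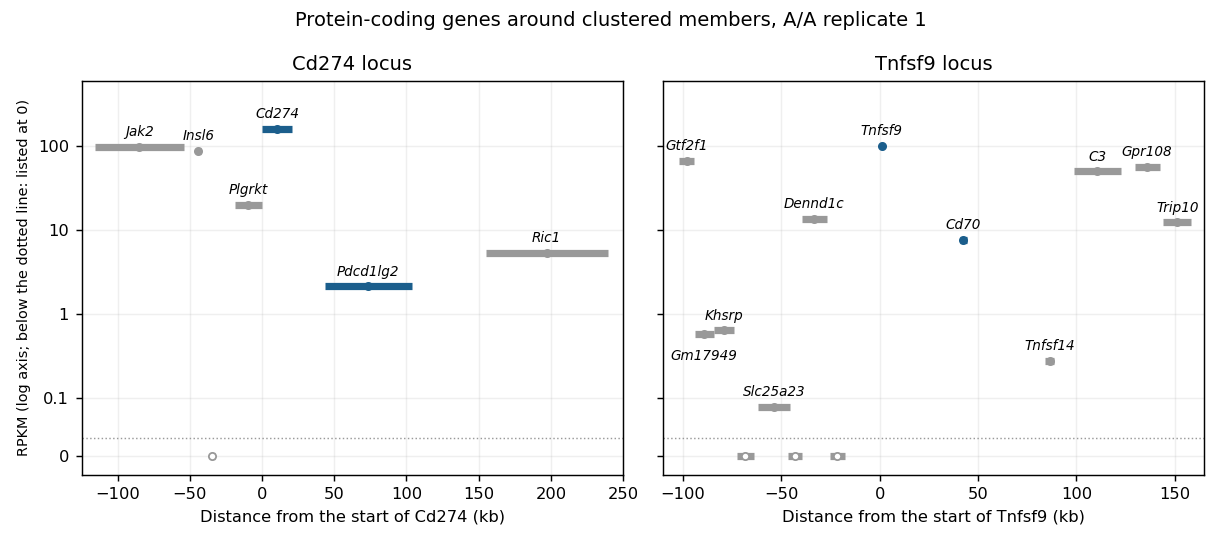
RPKM (log axis) of protein-coding genes by distance from the start of *Cd274* (left) and of *Tnfsf9* (right) in kb, A/A replicate 1, with members in blue, other genes in grey and open points below the dotted line for genes listed at 0. *Cd274* at 160 RPKM and *Tnfsf9* at 101 stand above the neighbouring members *Pdcd1lg2* at 2.13 and *Cd70* at 7.56.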

How the data were processed

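The authors sorted splenic pDCs, prepared mRNA libraries (VAHTS kit) and sequenced them as paired-end reads on an Illumina instrument. The submitters' processing notes name HISAT2, StringTie, mm8 and mm10 without a role. The counting tool, annotation and use of strand are not given in the sources used here. Per gene, the authors deposited a signal that was already normalized, with no stated unit, on GRCm38. All values above 0 (100%) were whole multiples of 1.19 (tolerance, 0.05 reads), that is, counts divided by a size factor of 0.839, so reads were recovered by division. That this step stands for 1 read was inferred from the values.

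Gene identifiers were matched to GENCODE M21 (99.7%). CPM had Wilson 95% intervals, the floor was 3 reads, RPKM used the union of annotated exons, and ratios of RPKM had exact conditional binomial (Clopper-Pearson) 95% intervals. Percentiles were taken among genes with reads, with ties at their midpoint, and log2 levels used a pseudocount of 1 CPM. Shared sequence was counted in 50-base windows of annotated transcripts, matched on both strands. The gene bounds in the table were those of M21 for 7 of the 10 members, and differed for *Cd80*, *Tnfsf9* and *Pdcd1lg2*. Python 3.11.15, numpy 2.4.6, scipy 1.17.1, pandas 2.3.3 and matplotlib 3.10.9 were used.

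The members and lists were chosen with earlier results of these data known. All members, the genes of the lists and *Ncf1* could be named. Genotype comparisons by edgeR, as planned, need libraries of more than 1 genotype and were not run. Protein identity between members was not run. The alternatives tried were other lengths, other backgrounds for percentiles, other totals for CPM, another pseudocount and another promoter window.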

Additional observations from a re-analysis of the deposited data

How the results depend on the processing

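No paired analysis was possible because 1 library was analysed, and for the same reason the planned replicate block, leaving out of replicates, DESeq2 and filter on low values were not run. For the 10 members, the median percentile of 93.6 became 92.2 among genes with at least 10 reads, 97.9 among all genes listed, 91.0 among protein-coding genes and 94.7 by reads per kilobase of exon. Of the 10 ranks by RPKM, 5 were kept with CPM and 5 with the longest coding sequence, and 8 with the longest transcript. The exon length within the deposited bounds, chosen after the data were seen, kept 8 and changed the ratio of *Cd86* to *Cd80* from 17.5 to 8.02. The ratio of *Cd274* to *Pdcd1lg2*, 75.3, was 139 in CPM and 118 with the coding sequence. The ratio of *Cd80* to *Cd28*, 0.827, reversed to 1.80 with the exon length within the deposited bounds, and the other 7 ratios of a ligand to its partner kept their direction under the 4 other scales, all chosen after the data were seen. By CPM, *Cd70* stood at percentile 50.1 among genes with reads, and at 38.9 among those with at least 10 reads. These changes follow from the lengths and backgrounds used. The window of 250 bases before the start held the same number of motif and promoter pairs, 6. CPM was higher for all 10 members when taken over protein-coding reads or, chosen after the data were seen, without the 10 genes with the most reads. With 131 reads, *Pdcd1lg2* had the widest interval relative to its level, and no value has a replicate error.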

Other observations

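Other surface molecules that regulate T cells or phagocytes were also read from A/A replicate 1, from a list that does not overlap the 10 members. All 8 genes were above the floor of 3 reads, with a median of 252 CPM and 107 RPKM. The median was 6.34 CPM for all genes with reads and 17.8 CPM for protein-coding genes with reads. *Lgals9*, which encodes galectin-9, a ligand of TIM-3, had 265 RPKM, and *Icam1*, which encodes the adhesion ligand of LFA-1, had 250.2. *Cd47*, whose protein inhibits phagocytosis through SIRPα, had 177 RPKM, *Cd200*, whose protein binds an inhibitory receptor of myeloid cells, had 117, and *Cd48*, which encodes a ligand of CD2 and 2B4, had 96.0. The ligands of TIGIT and CD226, *Nectin2* and *Pvr*, had 19.6 and 9.73 RPKM, and *Tnfrsf14*, which encodes HVEM, the partner of BTLA, had 7.82. In this library *Lgals9*, *Icam1* and *Cd47* were higher per kilobase of exon than *Cd274* at 160 RPKM, and lower than *Cd83* at 726.

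Identical 50-base windows, matched on both strands, were found in transcripts of other genes for 3 of the 10 members. They made up 12.4% of the windows of *Cd274*, 11.5% of those of *Tnfsf9* and 0.501% of those of *Cd40*. Exons of opposite-strand genes overlap 14.1% of the *Cd274* exon bases and 14.9% of those of *Tnfsf9*. Windows inside such overlaps count as shared, and their part in these shares was not counted.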
